A study of Homo sapiens with 7 samples.

Results

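Among the sorted fractions of a human embryonic stem cell line driven toward heart muscle, the cells that lacked a cardiac reporter on day 14 were set against those that lacked one on day 7. The comparison rests on 2 of the 7 libraries, chosen by their labels, with 1 library for each group. The line is labelled H3 hESC and carries eGFP at NKX2-5 and an mCherry reporter of alpha-MHC. Its label changes from library to library only in the number after NKX2, and all libraries are treated here as 1 line. The day 7 library holds cells labelled CD13+/ROR2+/NKX2-5-, sorted as eGFP-negative. The day 14 library holds cells labelled CD13+/ROR2+/NKX2-5+/a-MHC-, positive for the NKX2-5 reporter and negative for the alpha-MHC reporter. The labels call the cell type of both unknown. The day 7 label names no alpha-MHC gate. Day, NKX2-5 gate, alpha-MHC gate and library differ together between the 2 libraries and cannot be told apart. No statistical test is possible with 1 library per group.

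NKX2-5 is a homeobox gene of early heart cells, and alpha-MHC, encoded by MYH6, is a motor protein of the contracting heart muscle cell. Cells that lack such a reporter in a cardiac culture can be a mixture. They can hold mesenchyme that secretes collagens and proteoglycans, endothelium, epicardium-like cells, and endoderm-like cells that make the plasma proteins known from liver and yolk sac. In bulk RNA, fewer cells of a type and less RNA per cell cannot be told apart.

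Levels are given as FPKM (fragments per kilobase, relative to all mapped fragments) after median-ratio scaling between libraries, called scaled FPKM. The words higher and lower are used for a difference of at least 2 (4-fold) in log2 of (scaled FPKM + 1), with at least 5 scaled FPKM in the higher library. The scaling factors were 1.22 for day 14 aMHC- and 0.926 for day 7 NKX2-5-, so deposited ratios carry an offset. Without scaling the median ratio of expressed genes moves by 0.40 on the log2 scale. Steps between low values placed the depth of day 14 aMHC- at 3.10 times that of the hESC library, while day 7 NKX2-5- could not be placed. Genes of at least 1 scaled FPKM numbered 10194 in day 14 aMHC- and 10943 in day 7 NKX2-5-. On the log2 scale and across 13357 genes, which are not replicates, Pearson r was 0.894 between these libraries and 0.979 between day 14 aMHC- and day 14 aMHC+.

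COL3A1, COL1A1 and FN1 were within 2-fold between day 14 aMHC- and day 7 NKX2-5-, while proteoglycan genes such as LUM and DCN were lower in day 14 aMHC-. Of 25 plasma protein genes 14 were lower, and skeletal actin (ACTA1) was 52.5-fold higher. Of 5646 genes of at least 5 scaled FPKM in either library, 95 were higher in day 14 aMHC- (1.68%) and 120 lower (2.13%). A further 3413 (60.4%) lay within 2-fold with at least 5 scaled FPKM in both. The called and alike counts of each list below are to be set beside these shares of all genes. The split of calls depended on scaling. Unscaled FPKM gave 184 higher and 77 lower (70.5% higher, against 44.2% here), and equal sums of FPKM gave 24.7% higher.

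**Figure D1:**
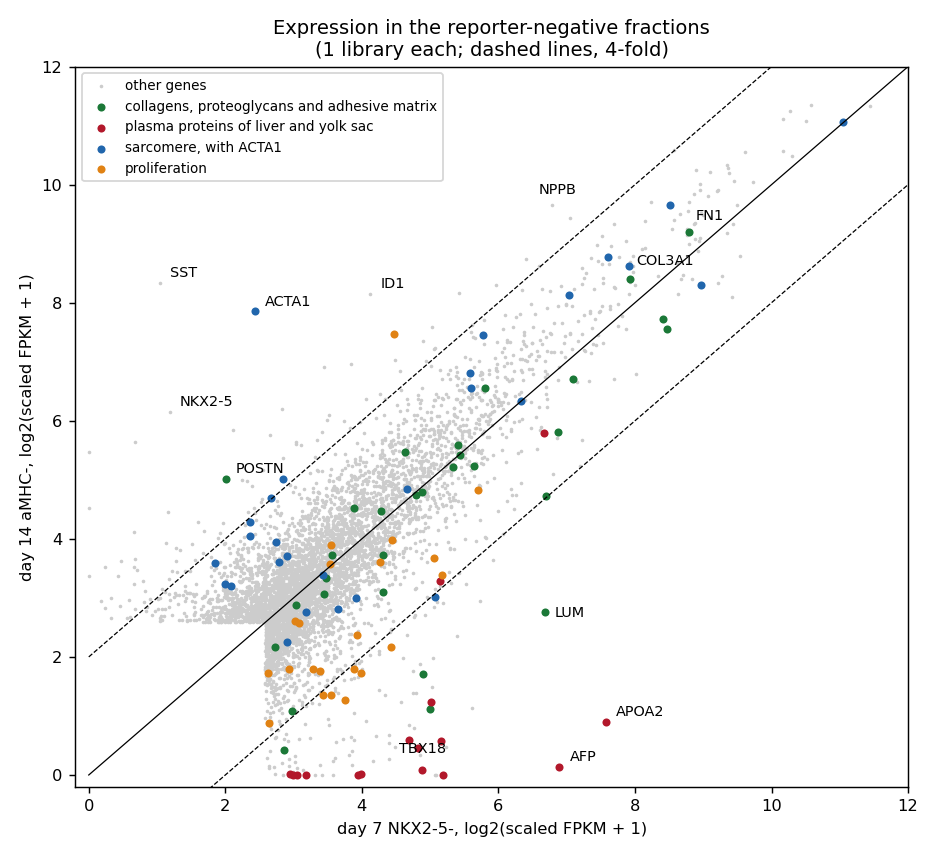
Each point is a gene of at least 5 scaled FPKM in either library, plotted as log2(scaled FPKM + 1) in day 7 NKX2-5- (x) and day 14 aMHC- (y), with 4 gene groups coloured. COL3A1 and FN1 lie near the diagonal, AFP and APOA2 near the x axis, and ACTA1 and SST far above the 4-fold line.

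Collagen III (COL3A1), a fibre of soft connective tissue, stood at 335 scaled FPKM in day 14 aMHC- and 242 in day 7 NKX2-5-, a 1.39-fold difference. It was at 179 in day 14 aMHC+, 21.0 in day 7 NKX2-5+, 0.19 and 0.14 in the day 3 CD13+/ROR2+ and CD13-/ROR2- libraries, and listed at 0 in hESC. Both reporter-negative fractions thus held the highest COL3A1 levels of the 7 libraries. Collagen I alpha 1 (COL1A1) stood at 210 against 340 scaled FPKM, COL5A1 at 36.1 against 39.3 and the cartilage collagen COL2A1 at 41.7 against 42.4. The second chain of collagen I differed more. COL1A2 stood at 25.6 against 103, a log2 ratio of -1.96 just short of a call, which it passes when libraries are scaled to equal sums. Of 11 fibrillar collagens, 6 reached 5 scaled FPKM, 0 were called and 4 were within 2-fold at that level. Of all 5646 genes, 60.4% were so. The median over all 11, whatever their level, was -0.12, and it changes sign with the scaling (0.18 unscaled). Over the 5646 genes, all of at least 5 scaled FPKM in either library, the median was 0.11.

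Adhesive and elastic matrix genes were mostly alike as well. Of 25, 20 reached 5 scaled FPKM and 16 lay within 2-fold with at least 5 in both, beside 60.4% of all 5646 genes. Of the list, 1 was called higher and 0 lower, and the median was -0.09 (0.21 unscaled). Fibronectin (FN1), which links cells to matrix, stood at 587 scaled FPKM in day 14 aMHC- and 441 in day 7 NKX2-5-, against 320 in day 14 aMHC+ and 87.6 in day 7 NKX2-5+. The collagen-binding glycoprotein SPARC stood at 186 against 355, the growth factor CTGF at 104 against 135, and fibulin 1 (FBLN1) at 93.3 against 54.8. Periostin (POSTN), a matricellular protein of heart valves and fibroblasts, was the called gene, at 31.4 against 3.02 (10.4-fold). Day 14 aMHC+ lay between them, and the 4 remaining libraries were at or below 0.46.

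Genes for small leucine-rich proteoglycans, which bind and space collagen fibrils, differed more, though they were not the only matrix genes called lower. Lumican (LUM) stood at 5.82 scaled FPKM in day 14 aMHC- and 101 in day 7 NKX2-5- (17.4-fold). Decorin (DCN) stood at 1.18 against 31.1 (26.4-fold) and biglycan (BGN) at 2.27 against 28.9 (12.7-fold). Fibromodulin (FMOD) was at 0.35 against 6.26. All 4 members that reached 5 scaled FPKM were called lower, of 11 on the list, whose median was -0.31. DCN, BGN and FMOD reached that level only in day 7 NKX2-5-, where they are high, so the filter itself favours a lower call. LUM reached it in both. Lumican was at 5.23 and decorin at 1.86 in day 14 aMHC+, and at 4.83 and 1.31 in day 7 NKX2-5+. Day 7 NKX2-5- was thus the only library of the 7 above 7 scaled FPKM for LUM and above 2 for DCN.

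Of 10 microfibril-associated collagens, 3 reached 5 scaled FPKM, 1 was called lower and 0 were alike, with a median of -0.85. The called gene was a chain of collagen VI. COL6A3 was called lower, at 2.40 against 25.9 scaled FPKM, while COL6A2 stood at 25.9 against 75.6 and COL6A1 at 51.2 against 115. Of 17 basement membrane genes, 14 reached 5 scaled FPKM and 2 were called lower, nidogen 1 (NID1, 2.74 against 14.6) and COL4A6 (2.82 against 14.9). A further 8 were alike, among them the laminin chains LAMC1 (40.1 against 56.1) and LAMB1 (37.4 against 32.8). Of all 5646 genes, 2.13% were lower and 60.4% alike. Both called genes lose their call in unscaled FPKM. Of 27 matrix enzymes and inhibitors, 19 reached 5 scaled FPKM, 1 was called lower, the protease inhibitor SERPINE2 (5.57 against 29.3, uncalled without scaling), and 8 were alike. The metalloprotease inhibitor TIMP1 stood at 116 against 89.1, whereas the gelatinase MMP2 stood at 29.8 against 79.2 and the crosslinking enzyme LOXL1 at 14.9 against 44.7. The collagen prolyl hydroxylase P4HA1 was at 24.0 against 5.73, a log2 ratio of 1.89 that passes the rule in unscaled FPKM.

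Mesenchymal surface genes and regulators were lower in part. Of 20, 14 reached 5 scaled FPKM, 5 were called lower and 0 higher. The median was -1.10 (-0.76 unscaled, short of the size of 1 used for lists). The endoglin gene ENG stood at 0.27 against 13.1 scaled FPKM, the zinc finger factor SNAI2 at 1.62 against 25.9 and THY1 at 1.71 against 18.1. THY1 was at 78.3 in hESC, whose column carries the same index as day 7 NKX2-5-, and the part of that index was not tested. The PDGF receptor gene PDGFRB stood at 5.40 against 26.2 and the collagen receptor gene DDR2 at 1.29 against 9.32, both uncalled without scaling. Vimentin (VIM) was alike, at 355 against 418, as was PDGFRA, at 5.54 against 9.00.

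**Figure D2:**
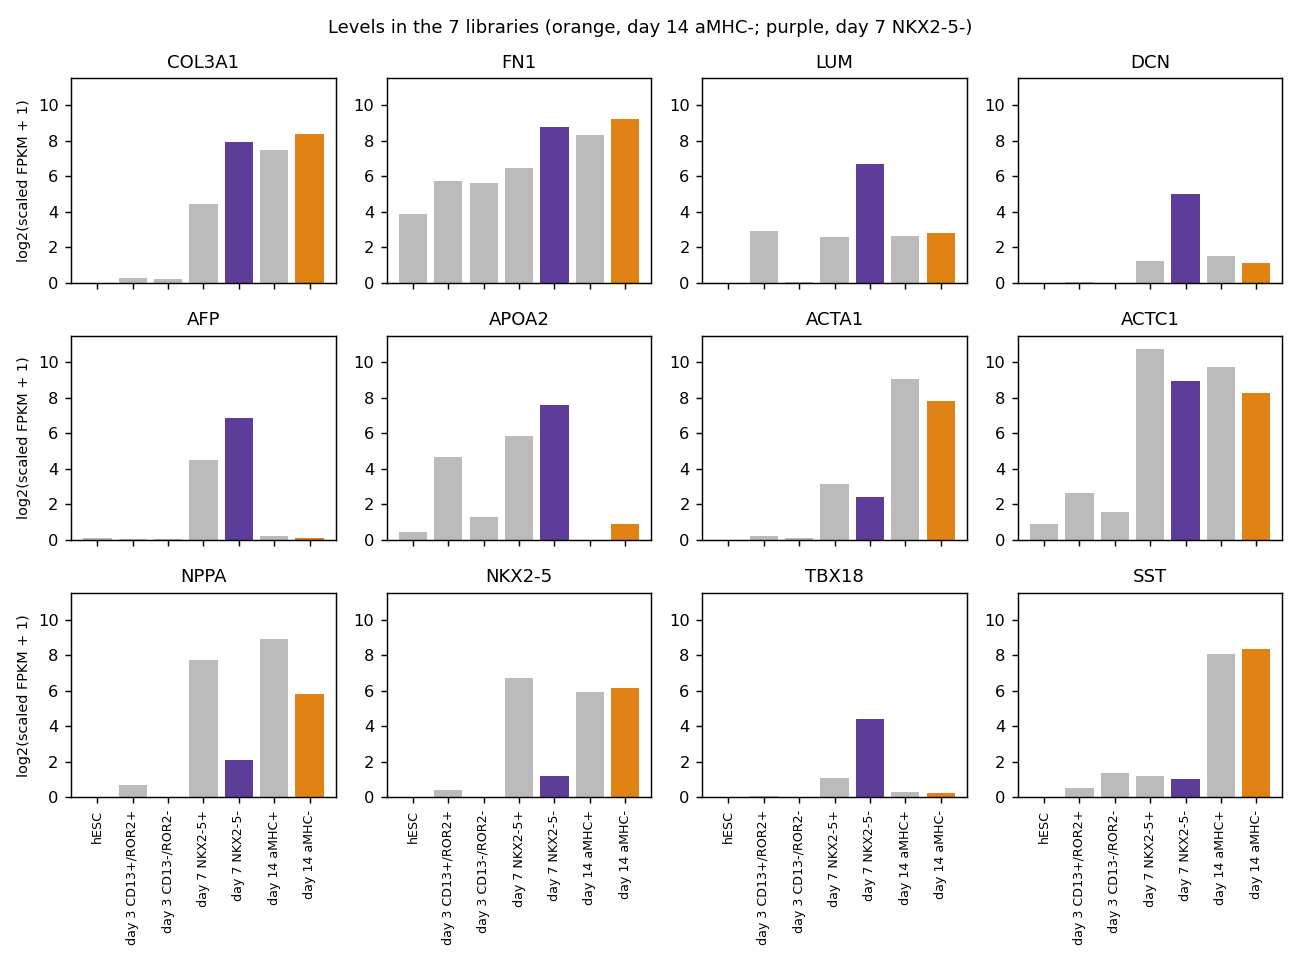
Bars give log2(scaled FPKM + 1) of 12 genes in each of the 7 libraries, with 1 library per bar and no error. COL3A1 and FN1 are high in both reporter-negative fractions, LUM, DCN and TBX18 stand out only in day 7 NKX2-5-, AFP and APOA2 are near 0 on day 14, and ACTA1 and SST are high in both day 14 libraries.

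Transcripts of liver and yolk sac plasma proteins were abundant in day 7 NKX2-5-, and 14 of 25 were lower in day 14 aMHC-. The fetal albumin relative alpha-fetoprotein (AFP) stood at 118 scaled FPKM on day 7 and 0.097 on day 14. It was at 21.7 in day 7 NKX2-5+, 0.19 in day 14 aMHC+ and between 0.023 and 0.094 in hESC and the day 3 libraries. AFP was thus high in both day 7 libraries and in no other. The lipoprotein gene APOA2 stood at 0.86 against 189, with 56.3 in day 7 NKX2-5+, 0 listed in day 14 aMHC+, 24.5 in day 3 CD13+/ROR2+ and 1.42 in CD13-/ROR2-.

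Of the 25 plasma protein genes, 16 reached 5 scaled FPKM, 14 were called lower, 0 higher and 1 was alike. Their median of -2.99 was the lowest of the 32 lists, and it stayed between -3.10 and -2.90 under the scalings tried. It was -5.34 with a pseudocount of 0.1 and -1.29 with one of 5. The lipoprotein gene APOC3 stood at 35.5 on day 7 and was listed at 0 on day 14. Fetuin A (AHSG) stood at 0.060 against 28.5, the retinol carrier RBP4 at 0.49 against 34.6, the protease inhibitor SERPINA1 at 0.37 against 27.3 and vitronectin (VTN) at 0.52 against 24.8. Fibrinogen chains followed, with FGA (14.4 on day 7) and FGG (8.11) listed at 0 and FGB at 0.015 against 6.70. The lipoprotein genes APOE, a lipid carrier made by many cell types, at 54.2 against 101, and APOC1, at 8.74 against 34.5, were not called and made up most of the sum that remained on day 14. The summed level of the list was 697 in day 7 NKX2-5- and 69.9 in day 14 aMHC-, and 266 and 49.8 in the corresponding reporter-positive libraries. Of the 25 genes, 20 reached 1 scaled FPKM in day 7 NKX2-5- and 4 in day 14 aMHC-.

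Endoderm transcription factor genes were mostly below the level needed for a call. Of 15, only GATA6, which heart cells also use, reached 5 scaled FPKM, at 20.3 against 8.55, and 0 were called in either direction. Their median of -0.25 rests on low values and was -1.41 with a pseudocount of 0.1. The largest ratio in size was that of HHEX, at 0.073 against 1.68.

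The promoter of AFP is shown because this gene had one of the lowest ratios. Its proximal region holds GTTAAT, which is only a part of the recognition element of HNF1, a liver factor. The 150 bases before the RefSeq gene start are at chr4:73436071-73436220 (GRCh38.p14, + strand, read 5′ to 3′), a build other than the hg19 of the expression table. Capitals mark GTTAAT, searched on both strands.
AFP promoter: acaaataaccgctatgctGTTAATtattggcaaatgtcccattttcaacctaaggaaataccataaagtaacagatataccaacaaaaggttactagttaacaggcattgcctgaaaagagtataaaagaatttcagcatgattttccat
Of 25 plasma protein genes, 19 had a promoter in the table and 6 held GTTAAT within the 300 bases around the start, against 6.88% of all 35116 promoters. Of these, AFP, FGA and FGB were called lower (3 of the 10 called genes with a promoter), and ALB, APOH and F2 were not called. A match is a description of the letters and no evidence of binding.

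Skeletal actin led the muscle genes on the higher side. ACTA1, the alpha-actin of skeletal muscle that fetal heart muscle also uses, stood at 230 scaled FPKM in day 14 aMHC- and 4.39 in day 7 NKX2-5- (52.5-fold). The remaining libraries were at 541 in day 14 aMHC+, 7.99 in day 7 NKX2-5+, at most 0.16 on day 3 and listed at 0 in hESC. Both day 14 libraries were thus above all earlier ones, and aMHC- was the lower of them. Reads of the actin genes ACTA1, ACTC1 and ACTA2 may have been split between these close relatives, so their levels are uncertain to that extent. ACTC1, the cardiac actin, stood at 314 against 501 and ACTA2, the smooth muscle actin, at 337 against 454, both within 2-fold.

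The ACTA1 promoter is shown because the gene had the highest ratio among muscle genes. Its 150 bases before the start lie at chr1:229434095-229434244 (GRCh38.p14, - strand, read 5′ to 3′), with the CArG box, the element read by serum response factor, in capitals.
ACTA1 promoter: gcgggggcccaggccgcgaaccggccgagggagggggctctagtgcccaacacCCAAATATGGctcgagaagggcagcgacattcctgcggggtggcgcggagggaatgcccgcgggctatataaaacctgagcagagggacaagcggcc
A CArG box on either strand was present in 1.29% of all promoters of 300 bases. On the cardiac and shared sarcomere list 4 of the 24 genes with a promoter held one (ACTC1, LDB3, MYL7 and MYOM1), and ACTA1 was the 1 of 17 on the list of skeletal isoforms. The gene for serum response factor itself (SRF) stood at 16.3 scaled FPKM in day 14 aMHC- and 12.0 in day 7 NKX2-5-.

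Other skeletal isoforms were low or not called. Of 25 genes on that list, 4 reached 5 scaled FPKM and 1, ACTA1, was called higher. The slow troponin I gene TNNI1, also a fetal heart isoform, stood at 53.1 against 25.2. MYOD1 and MYOG, regulators of skeletal muscle, were listed at 0 in both fractions. The skeletal myogenic regulators summed to 0.06 in day 14 aMHC- and 3.07 in day 7 NKX2-5-, and of the 8 measured none reached 1 on day 14.

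Cardiac sarcomere genes were present in both fractions and differed less than ACTA1. Of 34 genes, 27 reached 5 scaled FPKM, 2 were called higher, 1 lower and 12 were alike, with a median of 0.76 (1.14 unscaled, past the size of 1). The light chain gene MYL3 stood at 31.4 against 6.18 and SMPX differed 4.64-fold, both higher by the rule but not at equal sums of FPKM. Nebulette (NEBL), a Z-disc protein, was lower, at 7.05 against 32.8, though not called in unscaled FPKM. The atrial light chain MYL7 stood at 804 against 366, cardiac troponin T (TNNT2) at 438 against 194 and tropomyosin 1 (TPM1) at 2138 against 2120. MYH6, the gene behind the alpha-MHC reporter, stood at 111 against 46.8 scaled FPKM, with 325 in day 14 aMHC+ and 774 in day 7 NKX2-5+. Sarcomere transcripts summed to 5054 in day 14 aMHC- and 3934 in day 7 NKX2-5-, below 10817 in day 14 aMHC+ and 11402 in day 7 NKX2-5+. Neither fraction was thus free of muscle transcripts, and the part of these transcripts in the other values was not tested.

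Natriuretic peptide genes, whose products regulate salt and blood pressure, were both higher. NPPA stood at 56.1 scaled FPKM in day 14 aMHC- and 3.31 in day 7 NKX2-5- (16.9-fold), with 487 in day 14 aMHC+ and 213 in day 7 NKX2-5+. NPPB stood at 802 against 109 (7.34-fold), with 1341 and 182 in the same reporter-positive libraries. Of 8 genes on that list 3 reached 5 scaled FPKM and these 2 were called. Its median of 0.84 becomes 1.11 unscaled. Of 27 calcium handling and channel genes, 9 reached 5 scaled FPKM and 1 was called, sarcolipin (SLN), a small inhibitor of the calcium pump, at 1.63 against 26.8. The calcium pump gene ATP2A2 stood at 31.4 against 33.6 and phospholamban (PLN) at 14.5 against 13.0. Of 20 muscle energy genes, 8 reached that level and 1 was called, the muscle enolase ENO3, at 40.5 against 6.21. A further 6 were alike, among them FABP3 at 18.4 against 14.2. Of 17 smooth muscle genes, 13 reached it, 0 were called and 7 were alike. Their median was 0.66 (1.02 unscaled), with TAGLN at 361 against 155 and CNN1 at 78.3 against 28.0.

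Cardiac transcription factor genes differed in both directions. Of 30, 21 reached 5 scaled FPKM, 3 were called higher and 5 lower, with a median of -0.24. The 3 are ISL1, HAND2 and NKX2-5, and the call of NKX2-5 follows from the gates. NKX2-5 stood at 70.1 scaled FPKM in day 14 aMHC- and 1.27 in day 7 NKX2-5-, which checks the sort on this gene and is no finding. ANPEP, which encodes CD13, stood at 0.060 against 1.85 and ROR2 at 3.41 against 3.66. ISL1, a factor of the second heart field, stood at 16.5 against 2.23 and HAND2, needed for the right ventricle, at 62.8 against 12.3 (uncalled at equal sums). On the lower side, TBX18, a factor of epicardium and sinus node, stood at 0.20 against 20.1 and the atrial nuclear receptor gene NR2F1 at 0.12 against 13.5. TBX5, a factor of the left ventricle and atria, stood at 2.96 against 23.2 and HAND1 at 6.21 against 32.2 (uncalled without scaling). TBX5 stood at 67.9 in day 7 NKX2-5+ and 8.79 in day 14 aMHC+, so both day 7 libraries were above both day 14 libraries for this gene. GATA4 was alike, at 43.6 against 50.9, as was the SRF partner MYOCD, at 26.1 against 18.2.

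Markers of other cell types were compared in the same way, and genes below 5 scaled FPKM in both libraries could not be called. Of 20 endothelial and endocardial genes, 7 reached 5 scaled FPKM, 4 were called lower and 0 higher. Their median was -1.09 (-0.99 unscaled and -0.31 with a pseudocount of 5). EGFL7 was alike, at 5.59 against 6.13. PLVAP, a protein of endothelial diaphragms, stood at 0.17 against 16.9 scaled FPKM, CD34 at 0.090 against 7.29 and VE-cadherin (CDH5) at 0.11 against 6.66. The list summed to 15.1 in day 14 aMHC- and 82.8 in day 7 NKX2-5-, and 4 and 15 of its genes reached 1. Of 15 epicardial genes 6 reached 5 scaled FPKM, and TBX18 was the only one called. WT1 stood at 0.78 against 4.20, TCF21 at 1.15 against 5.87 and BNC1 at 1.80 against 7.22, while LRRN4 was alike at 57.1 against 71.6. The neural crest list had 1 of 9 called, SOX10 at 0.015 against 5.60, and a median of -1.10 that rests on 2 genes above 5. Of 16 blood genes on the list, 1 reached 5 scaled FPKM and 0 were called. Off the list, the globin gene HBD (log2 ratio 4.53), LMO2 (3.10) and GATA2 (2.10) were called higher and KEL (-2.70) lower. Of 15 neural genes, 2 reached 5 scaled FPKM and 1 was called, the tubulin gene TUBB3, higher at 40.7 against 8.90 (uncalled at equal sums). Pluripotency genes were low in both, summing to 18.2 and 56.7 against 1094 in hESC, and DPPA4 stood at 0.33 against 13.4. The day 7 NKX2-5- and hESC columns carry the same index in their names, and DPPA4 stood at 214 in hESC. The part of the shared index in day 7 values was not tested.

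Keratin genes of simple epithelia were high in both fractions. KRT8 stood at 488 scaled FPKM in day 14 aMHC- and 282 in day 7 NKX2-5-, and KRT18 at 654 against 470, each within 2-fold. KRT19 was called higher, at 162 against 28.8 (5.62-fold). The epithelial adhesion gene EPCAM stood at 1.63 against 5.52.

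Some cell cycle genes were lower in day 14 aMHC-. Of 26 proliferation genes, 22 reached 5 scaled FPKM, 6 were called lower and 1 higher, with a median of -1.26 (-0.93 unscaled). The topoisomerase TOP2A stood at 2.33 against 14.8, the division marker MKI67 at 1.57 against 10.7 and the centromere protein gene CENPF at 1.40 against 12.5. RRM2, PLK1 and CCNA2 were the other called genes, and without scaling CENPF alone of the 6 keeps its call. MCM3, which licenses replication, was alike, at 10.9 against 10.6. The called gene on the higher side was CDKN1A, which encodes the cell cycle inhibitor p21, at 176 against 21.1 (8.36-fold). It stood at 147 in day 14 aMHC+ and at 16.6 or less in the 4 remaining libraries.

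**Figure D3:**
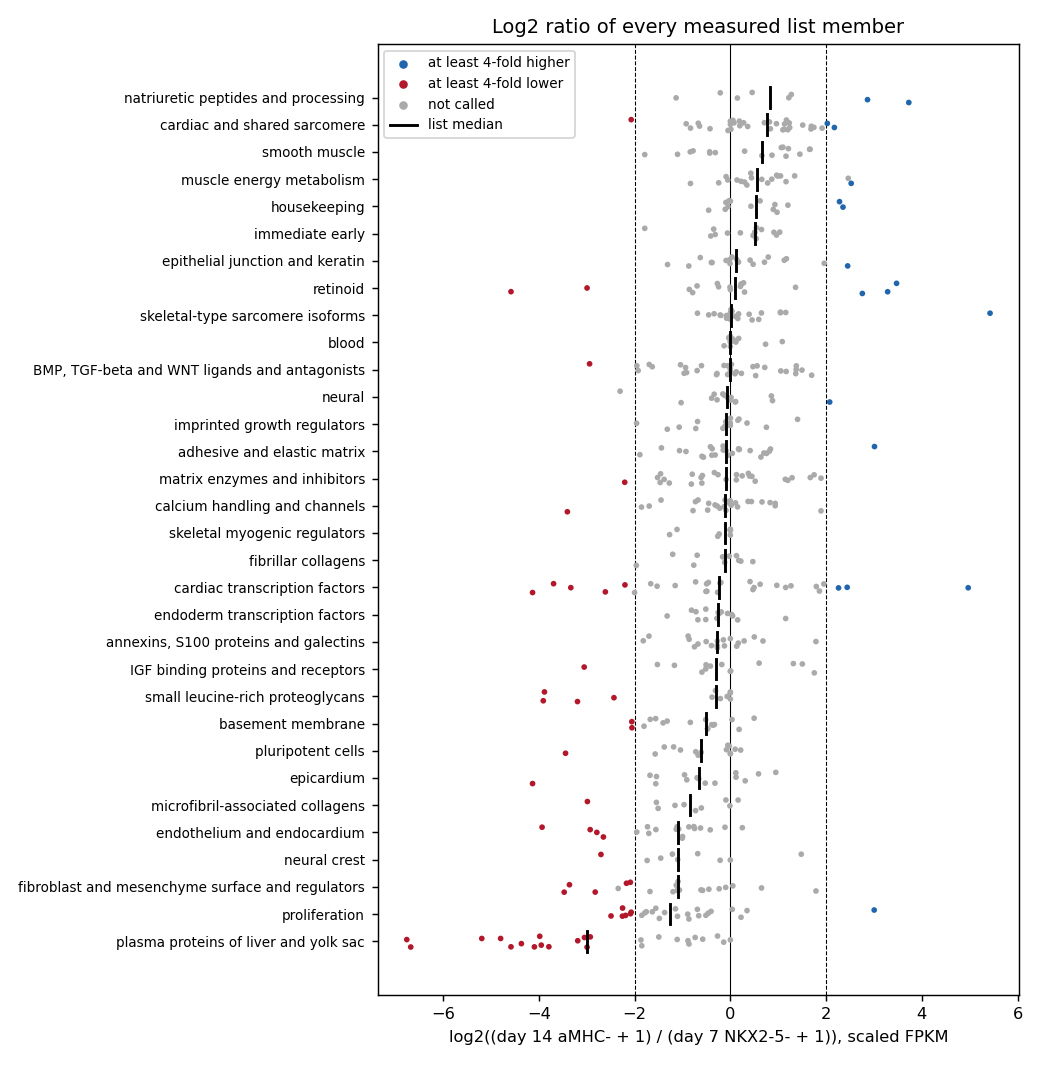
Each point is the log2 ratio of day 14 aMHC- over day 7 NKX2-5- (scaled FPKM + 1) of 1 list member, with lists ordered by their median (black bar) and the 4-fold rule dashed. Plasma proteins stand lowest with a median of -2.99, proliferation genes follow at -1.26, and most matrix, muscle and signalling lists have medians within 1 of 0.

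Some growth and signalling genes were called. Of 33 ligands and antagonists of the BMP, TGF-beta and WNT pathways, 16 reached 5 scaled FPKM and could be called. Of these, 1 was called lower, the WNT antagonist SFRP2 (0.041 against 6.99 scaled FPKM), and 4 were alike. Over all 5646 genes, 1.68% were higher and 2.13% lower. TGFB2 stood at 36.8 against 34.3 and SFRP1 at 45.3 against 41.4. IGF2, an imprinted growth factor gene, stood at 274 against 685 and DLK1 at 36.6 against 145, neither called. IGFBP5, which binds IGFs, was called lower at 4.08 against 41.2. Of 20 annexins, S100 proteins and galectins, calcium- and sugar-binding proteins, 15 reached 5 scaled FPKM, 0 were called and 12 were alike. S100A10 stood at 440 against 739 and ANXA1 at 72.7 against 66.2. Of 15 immediate early genes, 10 reached that level, 0 were called and 7 were alike, with JUN at 9.90 against 10.4. Of 14 housekeeping genes, 12 reached it and 2 were called higher, the glycolytic kinase PGK1 (113 against 22.5, uncalled at equal sums) and the transferrin receptor TFRC (11.4 against 1.43). ACTB was alike at 2585 against 2784.

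Retinoid genes differed in both directions. The intracellular carrier CRABP2 was called higher, at 119 against 9.86 scaled FPKM, as was the retinal reductase DHRS3 at 10.5 against 0.18. The secreted carriers RBP4 and TTR, also on the plasma protein list, were called lower. CRABP2 stood at 115 in day 14 aMHC+.

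Outside the lists, the highest ratio belonged to somatostatin (SST), a peptide hormone, at 323 scaled FPKM in day 14 aMHC- and 1.06 in day 7 NKX2-5-. SST stood at 264 in day 14 aMHC+ and at most 1.61 in the other libraries, so both day 14 libraries were far above the rest. ID1, an inhibitor of helix-loop-helix factors and a BMP target, stood at 282 against 16.4, with 235 in day 14 aMHC+ and 184 in day 3 CD13-/ROR2-. The potassium channel subunit KCNG1 stood at 48.8 against 0.61 and the elongation factor isoform EEF1A2, known from neurons and muscle, at 16.4 against 0.59. GNG8 and the delta globin gene HBD were at 43.2 and 22.04 and listed at 0 in day 7 NKX2-5-.

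Among the lowest ratios outside the lists were the chemokine gene CXCL14 (0.40 against 36.7), the secreted ribonuclease RNASE1 (0.26 against 27.9) and CTHRC1, a secreted protein of collagen-producing cells (1.20 against 48.1). PLA2G2A (10.9 on day 7) and PLAC9 (9.71) were listed at 0 in day 14 aMHC-. CHCHD2 and HNRNPC were listed at 0 there although they stood at 32.8 and 32.6 on day 7, and HNRNPC, an RNA-binding protein gene that most cells use, was at 0 in day 14 aMHC+ too. A listed 0 can be a failed estimate. Of the calls, 11 lower and 2 higher involve a listed 0.

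The SST promoter is shown because the gene had the highest ratio of all and its cyclic AMP response element is a classic one. Its 150 bases before the start lie at chr3:187670395-187670544 (GRCh38.p14, - strand, read 5′ to 3′), with the element TGACGTCA, searched on both strands, in capitals.
SST promoter: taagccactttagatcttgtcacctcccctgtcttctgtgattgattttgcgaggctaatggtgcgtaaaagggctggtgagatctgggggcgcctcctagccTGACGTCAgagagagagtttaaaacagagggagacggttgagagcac
That element was found in 1.85% of all promoters of 300 bases.

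The same days were compared in the reporter-positive fractions, day 14 aMHC+ over day 7 NKX2-5+, which share no library with the comparison above. The 2 are still not independent, as both day 14 libraries hold NKX2-5+ cells and had a Pearson r of 0.979. The positive pair is NKX2-5+ on both days, whereas the NKX2-5 gate changes in the negative pair. There 172 of 5700 genes were higher (3.02%) and 97 lower (1.7%). Of the 95 genes higher between the reporter-negative fractions 47 were also higher between the positive ones (49.5% of the former and 27.3% of the latter list). Of the 120 lower genes 30 were lower in both (25% and 30.9%). SST, ACTA1, ID1, CRABP2 and POSTN were among the genes higher in both, and AFP, APOA2, TBX5 and TOP2A among those lower in both. Others had a large ratio only between the negative fractions. LUM had a log2 ratio of -3.91 there and 0.09 between the positive fractions, DCN -3.88 and 0.31, COL6A3 -2.99 and -0.07 and THY1 -2.82 and 0.01. EEF1A2 had 3.46 and -0.07. COL3A1 had 0.47 between the negative and 3.03 between the positive fractions, and FN1 0.41 and 1.86. These differences between the comparisons were not tested.

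**Figure D4:**
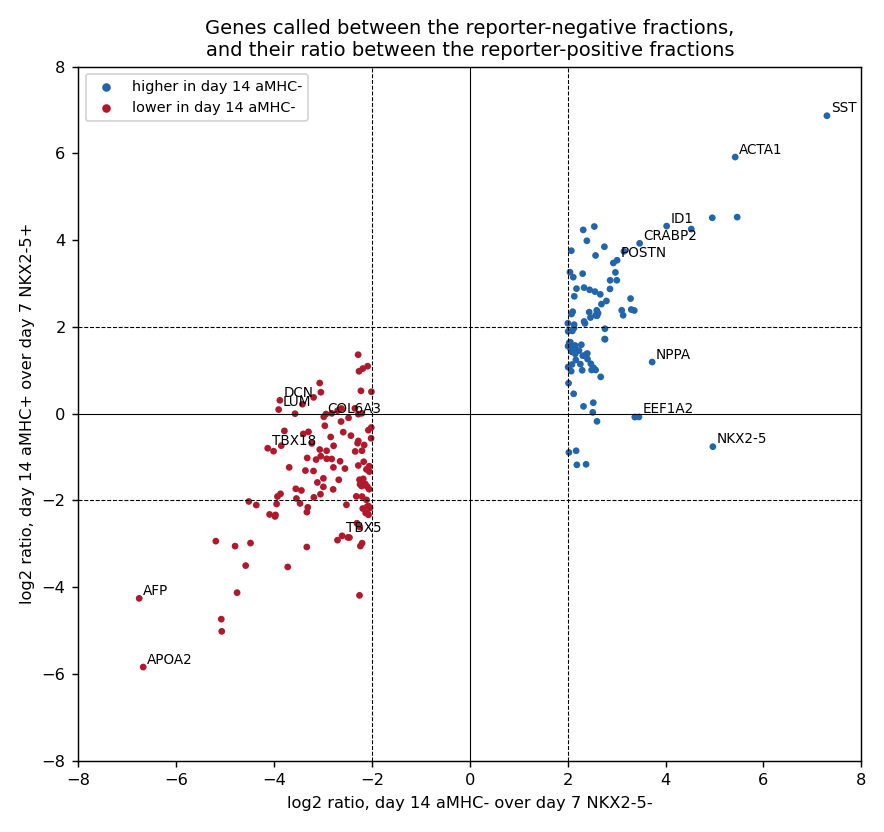
Each point is 1 of the 215 genes called between the reporter-negative fractions, with that log2 ratio on the x axis and the log2 ratio of day 14 aMHC+ over day 7 NKX2-5+ on the y axis. SST, ACTA1, AFP and APOA2 lie far out in the same direction on both axes, while LUM, DCN and COL6A3 lie near 0 on the y axis and NKX2-5, which the sort used, lies below 0.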

How the data were processed

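RNA-seq libraries of 7 samples, 1 per group, were analysed as 1 deposited table of FPKM values, which the authors made with Cufflinks on hg19, per the submitters' processing notes. For versions, aligner and annotation, the sources used here give nothing. The labels describe double-sorted cells and TruSeq RNA v2 libraries, a chemistry without strand marking, read 1 end at a time. Reads of overlapping genes on opposite strands, or of close paralogs, may be misassigned. Absolute depth per library is not known.

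Of 23368 genes, 106 with blank cells and 1683 symbols starting with MIR, SNOR, SCARNA, RNU or HIST (host genes of such names included) were left out, and 21579 compared. Libraries were scaled by median ratios over 7742 genes above 1 FPKM in all. Ratios used a pseudocount of 1, and no test, interval or SD was possible. The procedure was tested on simulated data. Lists had a size rule of 1 for their median. Python 3.11.15, pandas 2.3.3 and numpy 2.4.6 were used. The libraries compared, the 32 lists and the markers were chosen with earlier results of these data known.

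Named genes were the markers COL3A1, ACTA1, AFP and NKX2-5, the sort genes, up to 4 called members per list and direction (or the 2 largest ratios), up to 6 alike members per list, the 10 highest and lowest ratios, and genes listed at 0 in 1 library, taken by level. Some further list members are given as values after they were seen, and some genes the rule takes are not reported here. Promoters are from RefSeq, GRCh38.p14.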

Additional observations from a re-analysis of the deposited data

Results flagged for a closer look

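MYH6 and DLK1 moved in opposite directions between day 7 and day 14 in the reporter-negative and reporter-positive fractions, a difference that was not tested. MYH6 went from 46.8 to 111 scaled FPKM in the negative and from 774 to 325 in the positive fractions, so that the log2 ratios differed by 2.48. Its reporter was used in the day 14 sort, and reads shared with MYH7 make its level uncertain. DLK1, an imprinted gene, went from 145 to 36.6 in the negative and from 10.7 to 39.1 in the positive fractions, a difference of -3.74.

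Small RNA symbols left out of the comparison held large deposited FPKM values. MIR612 stood at 213912 FPKM in day 7 NKX2-5- (51.6% of the sum of that library) and 66826 in hESC. SNORD12B stood at 37270 and 10703 in the same libraries, and both symbols were listed at 0 in the other 5. The column names of these libraries carry the same index, and its part in these values was not tested. MIR1248 stood at 14791 in day 7 NKX2-5- and was listed at 0 in the other 6. MIR593 stood at 59831 in day 14 aMHC- (20.4%) and was likewise listed at 0 elsewhere. FPKM of very short genes are large for few reads.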

How the results depend on the processing

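No paired analysis was possible because each group has 1 library, and for the same reason no replicate could be left out. For day 14 aMHC- over day 7 NKX2-5-, the 95 higher and 120 lower genes became 36 and 34 with a pseudocount of 5, 56 and 44 with at least 20 FPKM, 184 and 77 as deposited, 671 and 442 at 2-fold and 19 and 49 at 8-fold. The lower count was 184 with a pseudocount of 0.1, and the higher count 59 at equal FPKM sums. For day 14 aMHC+ over day 7 NKX2-5+, the 172 and 97 became 53 and 23, 85 and 31, 370 and 36, 834 and 477, and 42 and 19 in the same order. The lower count was 147 with a pseudocount of 0.1 and 151 at equal FPKM sums. With a pseudocount of 5 the medians fell short of 1 for mesenchymal (-0.58), endothelial (-0.31), neural crest (-0.31) and proliferation genes (-0.79). As deposited they were -0.76, -0.99 and -0.93 for mesenchymal, endothelial and proliferation genes, and 1.14 for cardiac sarcomere genes. No called median or called named gene changed sign under the settings run, but these settings could hardly have changed one. A pseudocount keeps the sign of a gene's ratio, and the scalings moved the median ratio by at most 0.40, short of the size of any call. With a pseudocount of 0.1 the medians of proteoglycans (-1.65), microfibril-associated collagens (-1.40), endoderm factors (-1.41) and epicardium (-1.33) passed 1 in size. The medians of 8 lists changed sign with the scaling. Of list medians, 209 of the values under alternatives stayed on the same side of the rule, 8 newly passed it and 7 lost it. The deposited scaling offset and the larger pseudocount act by construction, and low values in day 7 NKX2-5-, whose depth is unknown, are the least certain.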

Other observations

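Several genes outside the lists were picked here after their values were seen, so they show no theme. Enzymes of glucose use were among those called higher in day 14 aMHC-. The glucose transporter SLC2A3 stood at 124 against 13.3 scaled FPKM, lactate dehydrogenase A (LDHA) at 191 against 31.6 and the lactate exporter SLC16A3 at 30.9 against 3.74. ENO1 stood at 314 against 61.5, ENO2 at 20.9 against 1.23, ALDOC at 14.2 against 1.19 and TPI1 at 149 against 32.5, the last uncalled at equal FPKM sums. Other genes of the same route were not called, with SLC2A1 at 42.7 against 36.5 and GPI at 35.8 against 12.5. The mitophagy receptor BNIP3 (18.5 against 2.03) and DDIT4 (30.6 against 3.98) were higher, while VEGFA was at 15.2 against 13.0 and EPAS1, a hypoxia-inducible factor, lower at 0.51 against 13.8.

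Genes of the HOXB cluster included HOXB4 at 11.3 against 0.39, HOXB2 at 15.1 against 2.73 and HOXB5 at 7.92 against 1.11, all called higher, with HOXB6 at 1.88 against 1.84. Their cofactors MEIS2 (57.8 against 13.1) and MEIS3 (23.7 against 4.75) were called higher too. At equal FPKM sums HOXB2, HOXB5, MEIS2 and MEIS3 fall short of the rule, with log2 ratios of 1.84, 1.84, 1.75 and 1.81. The releasing hormone gene GHRH stood at 6.24 against 0.38, and at 14.8 in day 14 aMHC+.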
